A study of Mus musculus with 9 samples.

Results

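Genes of the epithelial-mesenchymal transition (EMT) were followed across 9 cell lines grown from tumors of 4T1, a mouse mammary carcinoma line that forms metastases. The 10 genes were given as a list of names, with no measured value in the rule: the transcription factors Zeb1, Zeb2, Snai1, Snai2, Twist1, Twist2, Foxc2 and Prrx1 and the structural genes Cdh2 and Vim. They are 10 of 19938 genes with a level on the arrays, and all 10 were measured, each by 1 probe set. The lines came from 3 brain metastases (4T1-BM2), 3 lung metastases (4T1-LM2) and 3 primary tumors (4T1-T2), and are called brain, lung and primary lines here. The study's design text gives 9 separate mice, while the sample titles number the mice 1 to 3 within each origin and do not say whether a repeated number has a meaning. Each was kept as its own frozen line, and the 9 were thawed, grown and extracted side by side, with no agent or engineered allele given and 1 array per line. The sources used here do not state the strain and age of the mice. Nor do the labels say what the shared name of an origin's lines marks. Lines with a common ancestor would count as fewer than 3 independent samples. The RNA came from cells in culture, not from tumors in the animal. In such bulk RNA, fewer cells of a type and less RNA per cell cannot be told apart.

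In EMT, epithelial cells lose their junctions and polarity and take on a motile, mesenchymal form. The zinc finger proteins of the Zeb and Snail families and the basic helix-loop-helix proteins of the Twist family bind E-boxes and repress epithelial genes such as Cdh1, which encodes E-cadherin. Foxc2 and Prrx1 are transcription factors linked to mesenchymal states. Gain of N-cadherin (Cdh2) and of the intermediate filament protein vimentin (Vim) is read as a mesenchymal feature. MicroRNAs of the miR-200 family repress Zeb1 and Zeb2.

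Levels are log2 intensities, compared for 1 gene across lines and never between genes. Array medians lay between 5.06 and 5.19. The spread of an array around the gene medians was widest in brain line 3 (interquartile range 0.178) and lung line 1 (0.164), against 0.0886 to 0.126 in the other 7 lines. A change was called at a limma adjusted p under 0.05 over all 19938 genes. Precision is limited by the number of arrays. On that rule 624 genes differed between brain and primary lines, 311 higher and 313 lower in brain lines (459 and 218 after centring each array on its median). Between brain and lung lines 395 differed, 182 higher and 213 lower in brain lines (296 and 146 after centring), and between lung and primary lines 0. As a check of the cell type, Krt8 and Krt18, keratins of simple epithelia, lay at 12.63 or more and 12.43 or more in every line, and Epcam, an epithelial adhesion protein, at 9.20 or more. Among the other mammary epithelial markers, Krt5 lay at 4.16 to 4.68 and Krt14 at 5.87 to 8.24. Krt14 averaged 8.06 in brain, 6.22 in lung and 6.44 in primary lines. Of the 8 mammary epithelial markers 3 were called higher in brain than in primary lines and 0 lower, against 1.56% and 1.57% of all genes. No marker of fibroblasts, endothelium, leukocytes, astrocytes, neurons and oligodendrocytes or lung epithelium was called between brain and primary lines. The median of probe sets without a gene symbol, 4.207, served as a background level, and Krt5 lay near it. For a gene with any group mean under it, levels are given and no change.

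Among the 10 genes, 1 was called between brain and primary lines: Foxc2 was lower in brain lines. Of all genes, 3.13% were called in this comparison, and 1.57% were called lower. The same gene was lower in brain lines than in lung lines, again as 1 of 10, against 1.98% of all genes called and 1.07% called lower. No member was called between lung and primary lines, where 0% of all genes were called. At an unadjusted p under 0.05, limma gave 2 of the 10 members in each brain comparison (Foxc2 and Vim) and 0 between lung and primary lines. In the F test over the 3 origins 1 member passed, Foxc2 again, against 2.36% of all genes. The median log2 change over the 10 members was -0.13 between brain and primary lines, -0.11 between brain and lung lines and -0.04 between lung and primary lines, where all genes had medians of 0.00, -0.01 and 0.01. These medians include Snai2, Prrx1 and Cdh2, for which no single change is given because a group mean lay below the background level. The medians of some other lists below likewise include such genes.

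**Figure D1:**
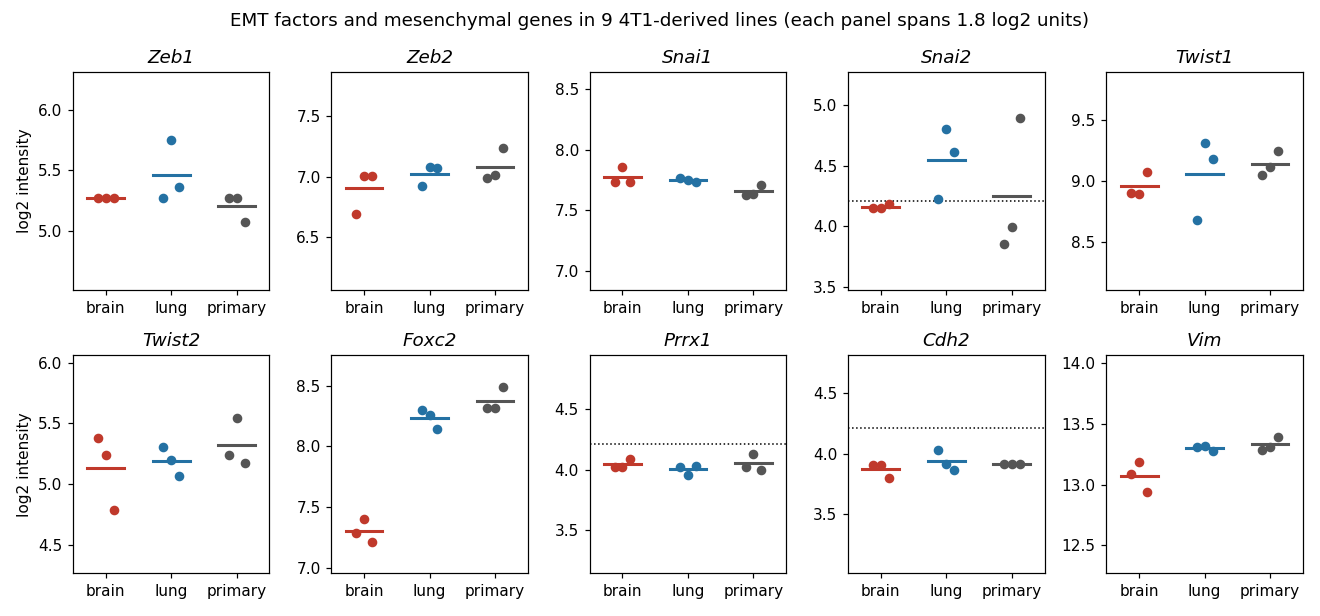
Log2 intensity of each of the 10 EMT genes in the 3 brain, 3 lung and 3 primary lines (points, in order of line number from left to right) with the mean of each origin (bar); the dotted line, where it falls in a panel, is the background level of 4.207, and every panel spans the same 1.8 log2 units. The brain lines lie below all others for Foxc2 (7.21 to 7.40 against 8.14 to 8.49) and, by less, for Vim (12.94 to 13.19 against 13.28 to 13.39), and the Prrx1 and Cdh2 points all lie under the dotted line.

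The Zeb family encodes paired zinc finger repressors. Zeb1 had levels of 5.27, 5.27 and 5.27 in brain lines, 5.27, 5.75 and 5.36 in lung lines and 5.27, 5.27 and 5.07 in primary lines. The highest values were in lung lines 2 and 3, and the groups touched or overlapped. In 6 of 9 arrays the value was one and the same, as it was in 6 or more arrays for 2.96% of all genes. Its log2 change was 0.07 between brain and primary lines (95% interval -0.20 to 0.33, adjusted p = 0.883), -0.19 between brain and lung lines (-0.45 to 0.07, adjusted p = 0.518) and 0.26 between lung and primary lines (-0.01 to 0.52, adjusted p = 0.975).

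Zeb2 stood at 6.69, 7.01 and 7.01 in brain lines, 6.92, 7.08 and 7.07 in lung lines and 6.99, 7.01 and 7.23 in primary lines. Brain line 1 was the lowest and primary line 3 the highest, with overlap between all 3 origins. The changes did not pass, at -0.17 for brain against primary lines (95% interval -0.41 to 0.06, adjusted p = 0.500), -0.12 for brain against lung lines (-0.35 to 0.12, adjusted p = 0.675) and -0.05 for lung against primary lines (-0.29 to 0.18, adjusted p = 0.991).

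Both Zeb transcripts are targets of the miR-200 family, whose mature sequences are shown because their seeds (bases 2 to 8, in capitals) pair with those transcripts. The seeds are of 2 kinds that differ at 1 base. The sequences are from RefSeq (GRCm38.p6), and the miR-200a and miR-141 pair shares the seed AACACUG.
mmu-miR-200a-3p: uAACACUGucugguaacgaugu
mmu-miR-141-3p: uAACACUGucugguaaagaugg
The other three members share the seed AAUACUG.
mmu-miR-200b-3p: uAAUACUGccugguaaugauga
mmu-miR-200c-3p: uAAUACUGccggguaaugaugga
mmu-miR-429-3p: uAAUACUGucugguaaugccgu
Of 15 EMT-related microRNA loci listed, 11 were measured and 0 were called in any comparison. Of all genes 3.13% were called between brain and primary lines, 1.98% between brain and lung lines and 0% between lung and primary lines. Of the 11 loci, 10 had means below the background level in all 3 origins. The exception was Mir200a, singled out after its values were seen, which read 5.23 in 8 of the 9 lines and 5.30 in primary line 1. Levels of Mir200b averaged 3.12, 3.10 and 3.08 in brain, lung and primary lines, those of Mir200c 3.97, 4.01 and 4.06, and those of Mir141 3.24, 3.25 and 3.14. These probe sets stand for gene loci and give no mature microRNA level. Mir429 is not analysed here.

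Snail family zinc finger proteins were represented by Snai1 and Snai2. Snai1 levels were 7.73, 7.85 and 7.73 in brain lines, 7.77, 7.75 and 7.73 in lung lines and 7.63, 7.64 and 7.71 in primary lines. Every brain line and every lung line lay above every primary line. The range over all 9 arrays was 0.23 log2 units, the narrowest of the 7 members with all means above the background level. Brain lines were 0.11 higher than primary lines (95% interval -0.03 to 0.26, adjusted p = 0.457) and lung lines 0.09 higher (-0.05 to 0.23, adjusted p = 0.975), and neither change passed. The difference between brain and lung lines was 0.02 (adjusted p = 0.914).

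Snai2, which encodes Slug, lay near background. It read 4.15, 4.15 and 4.18 in brain lines, 4.23, 4.80 and 4.61 in lung lines and 3.85, 3.99 and 4.90 in primary lines. The brain mean of 4.16 ± 0.02 (SD, n = 3) was below the background level, the lung mean was 4.55 ± 0.29 and the primary mean 4.25 ± 0.57, so no change is given. Brain lines were all below lung lines without overlap, while primary line 3 was the highest of all 9 and primary line 1 the lowest. Its spread within origins was the widest of the 10 members, with an SD of 0.37 against a median of 0.12 over all genes.

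The Twist pair was among the members that did not pass in any comparison. Twist1 had 8.90, 8.89 and 9.08 in brain lines, 8.68, 9.32 and 9.18 in lung lines and 9.05, 9.12 and 9.25 in primary lines. Lung lines alone held both the lowest and the highest value, and all origins overlapped. Its change was -0.18 between brain and primary lines (95% interval -0.51 to 0.14, adjusted p = 0.646), -0.10 between brain and lung lines (-0.43 to 0.22, adjusted p = 0.819) and -0.08 between lung and primary lines (-0.41 to 0.25, adjusted p = 0.991).

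Twist2, its close paralog, had 5.38, 5.24 and 4.78 in brain lines, 5.31, 5.20 and 5.07 in lung lines and 5.24, 5.54 and 5.17 in primary lines. Brain line 3, the array with the widest overall spread, was the lowest, and primary line 2 the highest. Changes were -0.18 between brain and primary lines (95% interval -0.53 to 0.16, adjusted p = 0.670), -0.06 between brain and lung lines (-0.40 to 0.29, adjusted p = 0.917) and -0.13 between lung and primary lines (-0.47 to 0.22, adjusted p = 0.976). For each Twist gene these intervals leave room for a fall or a rise, and a p above the threshold does not show that the origins were alike.

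Foxc2 encodes a forkhead transcription factor of mesenchyme and of developing vessels that is also used as an EMT factor. The gene lies on chromosome 8 (chr8:121116171-121118895, GRCm38.p6, from the reference gene table and not from the array files). Its levels were 7.29, 7.40 and 7.21 in brain lines, 8.30, 8.26 and 8.14 in lung lines and 8.31, 8.31 and 8.49 in primary lines. The brain lines were all below the other 6, and the SD within origins was 0.094. Foxc2 was 2.10-fold lower in brain lines than in primary lines (log2 change -1.07 ± 0.08, SE, 3 lines per origin, 95% interval -1.26 to -0.89, limma adjusted p = 8.7e-04). Against lung lines it was 1.91-fold lower (-0.93 ± 0.08, 95% interval -1.12 to -0.75, limma adjusted p = 0.00203). Lung lines lay below primary lines without overlap, but this change of -0.14 (-0.32 to 0.05, adjusted p = 0.975) did not pass. The means were, from low to high, 7.30 ± 0.10 in brain, 8.24 ± 0.08 in lung and 8.37 ± 0.10 in primary lines (SD, n = 3 each), with lung and primary lines as neighbours that did not differ by this test. In the F test over the 3 origins Foxc2 had an adjusted p of 0.00126. It passed between brain and primary lines in 18 of 18 alternative settings, with changes from -1.12 to -1.01. Between brain and lung lines it passed in 17 of 18, the exception being a linear model without variance moderation (adjusted p = 0.0615).

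**Figure D2:**
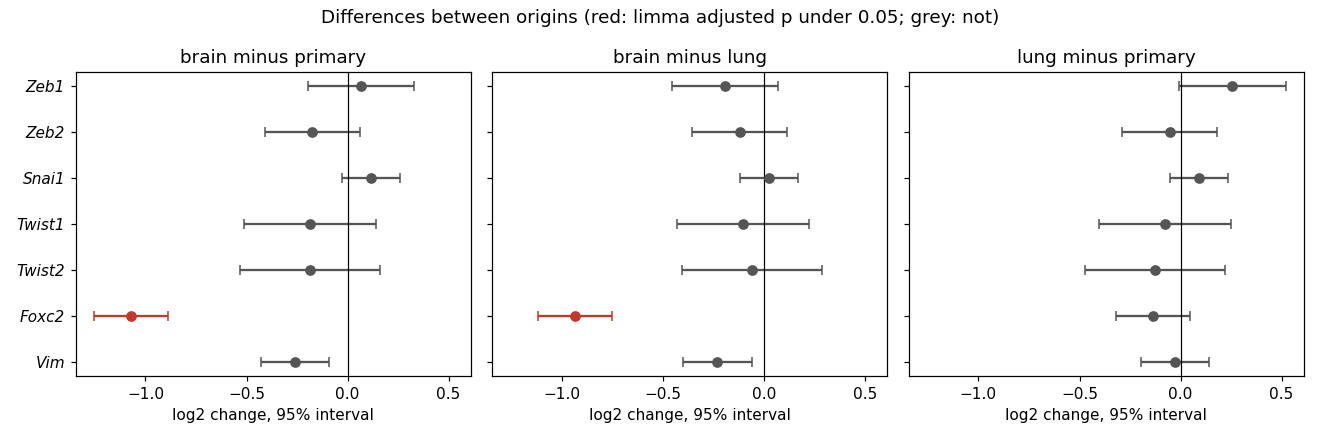
Log2 change of the 7 EMT genes with all group means above the background level, for brain minus primary, brain minus lung and lung minus primary lines, with 95% intervals of the limma model (bars); red marks an adjusted p under 0.05 over all genes. Foxc2 is the red point in the first 2 panels, at -1.07 and -0.93, and the Vim intervals in these panels also lie below 0 without passing after adjustment.

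Neighbours of Foxc2 were looked at after its values had been seen. Foxl1, another forkhead gene, starts 11.5 kb after the start of Foxc2 and had 5.44, 5.52 and 5.06 in brain lines, 6.05, 6.11 and 5.88 in lung lines and 6.04, 6.17 and 6.16 in primary lines. All 3 brain lines were below the other 6, as for Foxc2. Foxl1 was lower in brain than in primary lines (-0.78 ± 0.12, limma adjusted p = 0.00929, below 0.05 with each of the 9 lines left out) and than in lung lines (-0.67, adjusted p = 0.0221, a call lost without any 1 of the 3 lung lines, up to adjusted p = 0.103). In a linear model without variance moderation both Foxl1 calls were lost (adjusted p = 0.0790 against primary lines). The call against lung lines was also lost with every probe set tested separately. The neighbours on the other side did not pass between brain and primary lines. Mthfsd, 24.5 kb before Foxc2, had a change of -0.17 (adjusted p = 0.473). Foxf1, a forkhead gene 31.8 kb before it, had 0.27 (adjusted p = 0.344), and Irf8, an interferon regulatory factor, -0.19 (adjusted p = 0.429). Beyond Foxl1, 1700018B08Rik, 415 kb after Foxc2, did not pass against primary lines (-0.06, adjusted p = 0.808) or lung lines (-0.03, adjusted p = 0.890). Fbxo31, 433 kb after Foxc2, had a change of -0.38 between brain and primary lines (adjusted p = 0.0965). It was lower in brain than in lung lines (-0.57, adjusted p = 0.0281), a call kept in 2 of 9 fits that left out a line (without primary line 1 or 3, otherwise up to adjusted p = 0.105). Foxc1, the paralog of Foxc2, read 7.76, 8.01 and 8.26 in brain lines, 7.85, 8.03 and 8.05 in lung lines and 8.06, 8.26 and 8.47 in primary lines. Brain lines overlapped both lung and primary lines, and the change between brain and primary lines was -0.25 (adjusted p = 0.435). Lung lines lay just below primary lines without overlap, but this change of -0.29 (adjusted p = 0.975) did not pass.

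The genes whose levels ran most like those of Foxc2 over the 9 arrays were, by Pearson's r among 825 genes above background with a range of at least 1 log2 unit, Aldh3a2 (0.981), Slc14a1 (0.978), Cadps2 (0.977), Loxl3 (0.974) and Ttyh2 (0.963). These arrays share the split of brain lines from the rest, so the coefficients describe that split and not 9 separate points. Aldh3a2 encodes a fatty aldehyde dehydrogenase and averaged 8.49 in brain, 9.84 in lung and 9.92 in primary lines. Slc14a1 is a urea transporter and Loxl3 a lysyl oxidase family enzyme, and Loxl3 averaged 8.20, 9.34 and 9.55 in brain, lung and primary lines.

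Prrx1, a paired-related homeobox factor of mesenchyme, gave 4.02, 4.02 and 4.09 in brain lines, 4.02, 3.96 and 4.03 in lung lines and 4.02, 4.13 and 4.00 in primary lines. All 9 values were below the background level of 4.207 and overlapped between origins. Its paralog Prrx2, which is not a member, was above background at 5.21, 5.51 and 5.25 in brain lines, 6.08, 6.32 and 6.22 in lung lines and 5.43, 5.88 and 6.71 in primary lines. The brain lines were all below the lung lines and overlapped the primary lines, and the changes of -0.89 between brain and lung lines (adjusted p = 0.126) and -0.69 between brain and primary lines (adjusted p = 0.215) did not pass.

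Of the structural genes, Cdh2 was also at background, with 3.91, 3.91 and 3.79 in brain lines, 4.03, 3.91 and 3.86 in lung lines and 3.91, 3.91 and 3.91 in primary lines. N-cadherin mRNA was thus not above background in any line of any origin. Among 26 other classical cadherins and catenins, 10 had means below background in all 3 origins. In brain lines against primary lines 1 rose and 0 fell, where 1.56% of all genes were called higher and 1.57% lower. The one that rose was Cdh1, whose protein E-cadherin holds epithelial cells together, with 10.16, 10.33 and 10.29 in brain lines, 9.45, 9.50 and 9.87 in lung lines and 9.73, 9.48 and 8.87 in primary lines. Every brain line was above the other 6. The rise was 0.90 ± 0.19 over primary lines (limma adjusted p = 0.0386), and the change of 0.65 over lung lines did not pass (adjusted p = 0.134). The Cdh1 call remained in 1 of 9 fits that left out a line, the fit without primary line 1, and was lost without any other line (up to adjusted p = 0.113).

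Vim had 13.09, 13.19 and 12.94 in brain lines, 13.31, 13.32 and 13.28 in lung lines and 13.29, 13.31 and 13.39 in primary lines. Every brain line was below all 6 others, as was the case for Foxc2 among the members and for 5.05% of all genes. The change was -0.26 ± 0.08 between brain and primary lines (SE, 95% interval -0.43 to -0.09, limma adjusted p = 0.108) and -0.23 between brain and lung lines (-0.40 to -0.06, adjusted p = 0.176). Vim thus did not pass over all genes. It passed between brain and primary lines in 1 of 18 alternative settings, the intensity trend with a robust prior (adjusted p = 0.0443). Lung and primary lines differed by -0.03 (-0.20 to 0.14, adjusted p = 0.993). Calls were made for 3.13% of all genes between brain and primary lines, 1.98% between brain and lung lines and 0% between lung and primary lines. Of 17 other intermediate filament, lamin and linker genes, 0 were called in any comparison, with a median of -0.09 between brain and primary lines. The one in which brain lines lay above primary lines without overlap was Lmnb1, which encodes lamin B1, at 0.21 ± 0.08 (adjusted p = 0.252).

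Counted by overlap alone, 4 of the 10 members separated brain from primary lines, Snai1 with brain lines higher and Foxc2, Vim and Cdh2 with brain lines lower. Among all genes 17.8% did so, and 8.47% with brain lines lower. For Cdh2 the highest brain and the lowest primary value both rounded to 3.91, below background. Brain and lung lines were separated in 3 of 10, all with brain lines lower (Foxc2, Vim and Snai2), against 16.9% and 8.63%. Lung and primary lines were separated in Snai1, with lung lines higher, and Foxc2, with lung lines lower, against 8.71% of all genes and 3.84% with lung lines lower. With 3 lines per origin the smallest p of an exact permutation test is 0.1, and such tests are left out.

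Of 30 other EMT transcription factors listed, 26 were measured. None rose and 2 fell in brain lines against primary lines, with a median change of 0.00. Of all genes 1.56% were called higher and 1.57% lower in this comparison. Sox9, an HMG box factor, had 9.11, 9.07 and 9.06 in brain lines, 9.37, 9.40 and 9.25 in lung lines and 9.57, 9.58 and 9.55 in primary lines. The 3 origins did not overlap, with brain lines lowest and primary lines highest. The change between brain and primary lines was -0.49 ± 0.06 (limma adjusted p = 0.00518), a call that remained in all 17 alternative settings. Between brain and lung lines its change was -0.26 (adjusted p = 0.0814) and did not pass. Bmi1, a Polycomb protein known as a Twist1 target in human carcinoma cells, had a change of -0.42 ± 0.10 (adjusted p = 0.0495). That call was kept in 1 of 9 fits that left out a line, the one without lung line 2 (otherwise up to adjusted p = 0.147). Snai3, the third Snail gene, had a change of 0.13 (adjusted p = 0.652).

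Of 48 other mesenchymal genes listed, 45 were measured, 1 rose and 1 fell in brain against primary lines, and 43 did not pass, with a median of -0.04. The shares over all genes were 1.56% called higher and 1.57% called lower. Emp3, a small membrane glycoprotein, had 10.06, 10.16 and 10.01 in brain lines, 10.53, 10.63 and 10.51 in lung lines and 10.56, 10.62 and 10.95 in primary lines. All brain lines were below the other 6, and the change against primary lines was -0.63 ± 0.10 (limma adjusted p = 0.0125, below 0.05 with each line left out). That call was lost in a linear model without variance moderation (adjusted p = 0.0839). Tpm1, a tropomyosin of actin filaments, went the other way, with 10.92, 11.10 and 11.11 in brain lines, 10.54, 10.61 and 10.69 in lung lines and 10.42, 10.40 and 10.69 in primary lines. Its change over primary lines was 0.54 ± 0.09 (adjusted p = 0.0168), a call lost without brain line 2 or 3 or primary line 1 or 2 (up to adjusted p = 0.0698). The fibroblast markers, which overlap this list, were 3 of 9 below background in all arrays, among them Dcn and Lum. Their summed log2 level was 44.3 to 46.1 in brain, 45.0 to 46.2 in lung and 45.7 to 47.7 in primary lines. Their part in these results was not tested.

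**Figure D3:**
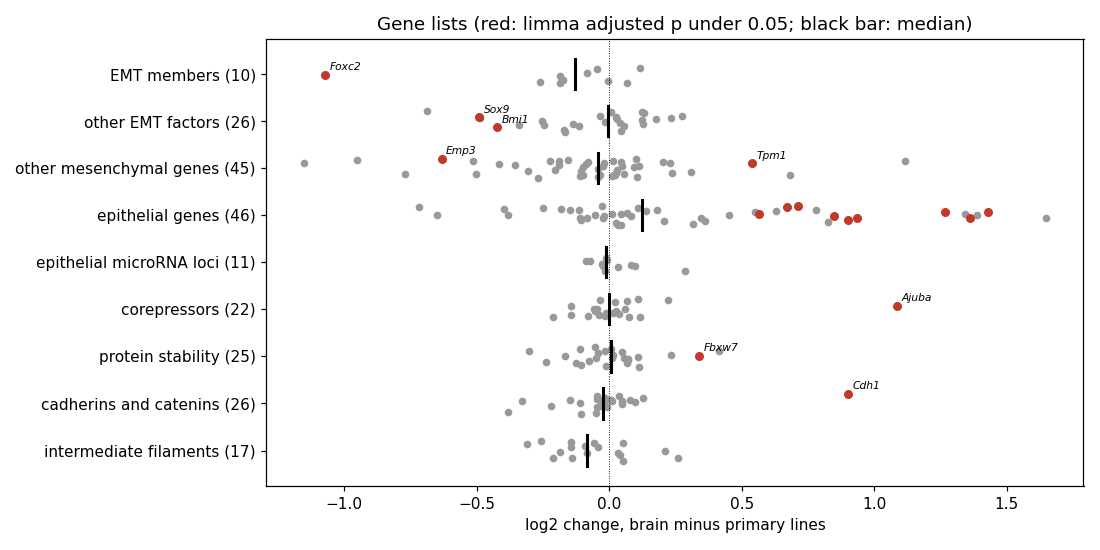
Log2 change between brain and primary lines of the 10 EMT genes and of 8 lists of related genes (points, one per gene, spread up and down for legibility; the number measured is in brackets), with list medians as black bars; red marks a limma adjusted p under 0.05 over all genes. The red points lie above 0 in the epithelial list (9 of 46) and at Ajuba, Fbxw7, Cdh1 and Tpm1, and below 0 at Foxc2, Sox9, Bmi1 and Emp3.

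Genes of epithelial cells, among them Cdh1, which EMT factors repress, were the list with the most calls. The list was chosen with earlier results of these data known, so its counts are not independent evidence of a direction. Repression of the listed genes by EMT factors was not tested. Of 48 listed, 46 were measured, 9 rose in brain lines against primary lines and 0 fell, with a median of 0.12. Against lung lines 6 rose and 0 fell, with a median of 0.15. In direction alone, 31 of the 46 were higher and 15 lower in brain than in primary lines, and 16 lay higher and 6 lower without overlap. Of all 19938 genes, 10312 were higher and 9614 lower, and 1866 lay higher and 1689 lower without overlap. Among the lower ones, named after their values were seen, Ppl, which encodes the desmosome-linked protein periplakin, had a change of -0.65 (adjusted p = 0.0946) and Jup, which encodes plakoglobin, one of -0.38 (adjusted p = 0.314), neither passing. Of all genes 1.56% were called higher in brain than in primary lines and 0.913% higher than in lung lines. The count of 9 was 5, 2 and 3 without brain lines 1, 2 and 3, 5 without lung line 3, 5 and 4 without primary lines 2 and 3, and 6 to 9 without the other lines. It was 4 without brain line 3 and lung line 1 together. The count of 6 against lung lines was 0 without brain line 2, without lung line 1 or without lung line 2. It was 2 and 1 without brain lines 1 and 3, 2 without lung line 3, and 5, 3 and 8 without primary lines 1, 2 and 3, and 0 without brain line 3 and lung line 1 together. Cgn, whose product cingulin lies at tight junctions, had 7.88, 7.89 and 8.27 in brain lines, 6.75, 6.96 and 7.22 in lung lines and 6.68, 6.30 and 6.98 in primary lines. All brain lines were above the other 6, by 1.36 ± 0.18 over primary lines (limma adjusted p = 0.00568, kept with each line left out). The Cgn call was lost in a linear model without variance moderation (adjusted p = 0.0740).

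Of the other epithelial genes named by size, Cldn3, a claudin of tight junctions, was 1.43 ± 0.26 higher in brain than in primary lines (limma adjusted p = 0.0205, lost without brain line 2 or 3, up to 0.0712). Krt19, a keratin, was 1.27 ± 0.25 higher (adjusted p = 0.0262, lost without any brain line or lung line 2 or 3, up to 0.0884). Pkp2, a desmosomal protein, was 0.93 ± 0.19 higher (adjusted p = 0.0297, lost without brain line 2 or 3, lung line 3 or primary line 1 or 3, up to 0.102). Between brain and lung lines, Rab25, a small GTPase of epithelial recycling, had 7.71, 7.96 and 6.92 in brain lines against 5.07, 5.24 and 5.36 in lung lines, with primary lines at 6.85, 5.79 and 5.02. The brain lines were above every lung and primary line, least clearly brain line 3 against primary line 1. The rise over lung lines was 2.31 ± 0.40 (limma adjusted p = 0.0221, lost without brain line 1 or 2 or any lung line, up to 0.0957). Its change over primary lines was 1.65 ± 0.40 (adjusted p = 0.061) and did not pass. Cldn7 was 1.54 ± 0.32 higher in brain than in lung lines (adjusted p = 0.0442) and St14, a membrane protease, 0.61 ± 0.13 higher (adjusted p = 0.0423). Both calls were lost with the mouse number as a replicate block, without any brain line, lung line 1 or 2 or primary line 2, Cldn7 also without lung line 3 and St14 also without primary line 1 (up to 0.165). The mammary epithelial markers, 6 of 8 of which are also in this list (Epcam, Cdh1, Krt8, Krt18, Krt19 and Cldn7), had a summed log2 level of 76.1 to 77.9 in brain, 71.1 to 73.1 in lung and 69.1 to 73.0 in primary lines.

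**Figure D4:**
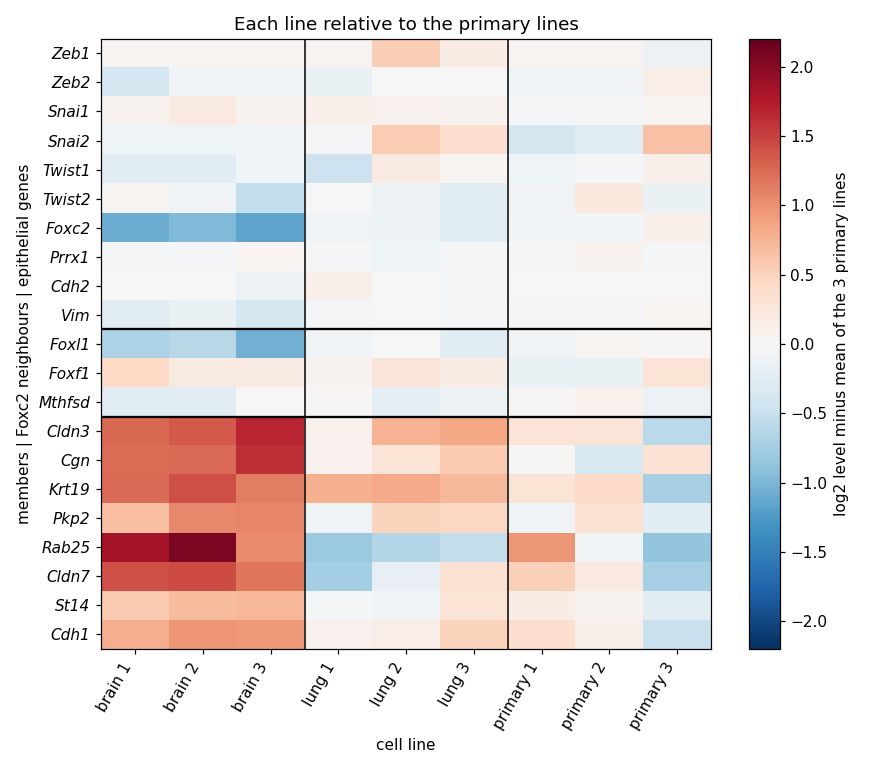
Level of each gene in each line minus the mean of the 3 primary lines (colour, log2 units) for the 10 EMT genes, 3 neighbours of Foxc2 and 8 epithelial genes named by rule. Brain lines are blue at Foxc2 and Foxl1 and red at the epithelial genes, while the remaining EMT genes show little colour or differ from line to line within an origin.

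The E-box bound by Zeb and Snail proteins was searched as CACCTG and as CAGGTG, the same motif read on opposite strands. The search covered the 250 bases before each transcript start in RefSeq (GRCm38.p6). The motif was found in 5252 of 27025 genes with such a window (19.4%), and in 18 of 27 epithelial genes with one (66.7%). Of the 12 epithelial genes that rose in brain lines in either comparison, only 5 had a window and could be searched. The motif was held by 3 of these (Cldn7, Rab25 and Elf3). The windows of Cgn and Cldn3 did not hold it. A link between the motif and the rises was not tested. Among the EMT members 6 had a window, and 1 of these held it (16.7%), Snai1. A match is a description of the letters and not of a bound site. Rab25 is shown because it had the largest rise over lung lines in the list and holds the motif at 64 and 53 bases before its start. Snai1 is shown because its own window, at 126 bases, is the one among the members that holds it. The windows are chr3:88548280-88548529 (minus strand) for Rab25 and chr2:167537945-167538194 (plus strand) for Snai1, with the motif in capitals.
Rab25: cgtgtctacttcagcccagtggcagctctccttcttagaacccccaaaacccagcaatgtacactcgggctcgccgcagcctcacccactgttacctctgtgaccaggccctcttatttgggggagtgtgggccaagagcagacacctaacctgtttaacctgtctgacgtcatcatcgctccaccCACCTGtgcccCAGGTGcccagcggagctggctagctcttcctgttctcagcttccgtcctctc
Snai1: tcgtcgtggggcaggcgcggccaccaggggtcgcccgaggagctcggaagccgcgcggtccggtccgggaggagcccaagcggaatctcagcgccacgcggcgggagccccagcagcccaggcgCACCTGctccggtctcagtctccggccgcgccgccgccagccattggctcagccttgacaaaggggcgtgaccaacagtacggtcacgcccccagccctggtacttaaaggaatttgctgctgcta

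Partners and turnover factors of the EMT proteins were mostly not called. Of all genes 1.56% were called higher and 1.57% lower in brain than in primary lines, and 0.913% higher than in lung lines. Of 23 corepressor and chromatin genes listed, 22 were measured, 1 rose in brain against primary lines, 0 fell, and the median was 0.00. The one was Ajuba, a LIM protein that bridges Snai1 to its corepressors, with 9.26, 9.24 and 9.83 in brain lines, 8.30, 8.28 and 8.52 in lung lines and 8.33, 8.08 and 8.66 in primary lines. All brain lines were above the other 6. The rise was 1.08 ± 0.18 over primary lines (limma adjusted p = 0.0135, lost without primary line 1 or 2, up to 0.0541) and 1.08 ± 0.18 over lung lines (adjusted p = 0.0211, lost without any 1 lung line, up to 0.0955). Of 28 genes for the stability of these proteins, 25 were measured, 1 rose and 0 fell, with a median of 0.01. Fbxw7, the substrate receptor of a ubiquitin ligase, had 6.66, 6.74 and 6.67 in brain lines, 6.20, 6.40 and 6.23 in lung lines and 6.34, 6.38 and 6.34 in primary lines. Brain lines were above all others, by 0.34 ± 0.07 over primary lines (limma adjusted p = 0.0342) and 0.42 ± 0.07 over lung lines (adjusted p = 0.0215). The call over primary lines was lost without any brain line, lung line 3 or any primary line (up to 0.102). The call over lung lines was lost without brain line 2 or 3 or lung line 1 or 3 (up to 0.075). None of these lists had a called gene between lung and primary lines.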

How the data were processed

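RNA of 9 cell lines was measured on 1 Affymetrix gene array each. The authors deposited log2 intensities from RMA, per the submitters' processing notes. As a method, RMA corrects background, quantile-normalizes the arrays and summarises each probe set. No log base is stated in the notes, and base 2 was taken from the range of the values. The sources used here give neither the RMA version nor a genome build, and no columns were left unused (0). Of 35557 probe sets, 21789 had 1 symbol in the platform annotation, 1621 several and 12147 none. Only the first kind was named, and for a gene with several probe sets the brightest on average was kept, which left 19938 genes. RefSeq tables of GRCm38.p6 gave locations, neighbours and sequences, none of them from the arrays.

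Each gene was fitted with limma 3.58.1 in R 4.3.3 (lmFit and eBayes, two-sided) in 1 model with a mean per origin (6 residual and 3.72 prior degrees of freedom). Benjamini-Hochberg adjustment ran over all 19938 genes. A value after ± is a standard error unless marked SD. The code was tested on simulated data. The members and lists were chosen with earlier results of these data known, so no list is independent evidence of its direction. Of 231 listed symbols 214 matched a tested gene, and the rest are not analysed here. The text names all members, up to 4 called genes per list, contrast and direction by size, and for lists without calls the 2 largest without overlap (1 such gene existed). Neighbours of Foxc2 and paralogs fall outside this rule.

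Mouse numbers 1 to 3 recur in each origin. Deviations of same-numbered lines correlated at 0.284, 0.130 and 0.241 between brain and lung lines. Between lung and primary lines they correlated at 0.221, 0.079 and 0.008, and between brain and primary lines at 0.067, -0.0007 and -0.044. Differently numbered lines were not correlated in this way, so whether the number marks a pairing was not tested. The main fit leaves the number out, and it entered only as the replicate block among the alternatives. With that block 566 genes were called between brain and lung lines, against 395 in the main fit. Alternatives were quantile normalization again, median centring, leaving out the dimmest genes by mean, moderation with an intensity trend and robust prior, no moderation, array weights, the replicate block, each line left out, every probe set tested separately and only the 6 arrays compared.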

Additional observations from a re-analysis of the deposited data

Results flagged for a closer look

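In 9 of the genes named with values the change against the same primary lines differed between brain and lung lines, by the limma test of brain against lung lines. Foxc2 differed by -0.93 (adjusted p = 0.00203), Foxl1 by -0.67 (adjusted p = 0.0221) and Fbxo31 by -0.57 (adjusted p = 0.0281). The rises were 2.31 in Rab25 (adjusted p = 0.0221), 1.54 in Cldn7 (adjusted p = 0.0442), 1.08 in Ajuba (adjusted p = 0.0211), 1.04 in Cgn (adjusted p = 0.0226), 0.61 in St14 (adjusted p = 0.0423) and 0.42 in Fbxw7 (adjusted p = 0.0215), all on the log2 scale. Leaving out a line never ended the Foxc2 call, whereas the other 8 genes each lost theirs in 3 to 7 of 9 such fits. No group had 4 or more lines, so no line was tested as an outlier within its group.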

How the results depend on the processing

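The count of EMT members called was 1 between brain and primary lines, 1 between brain and lung lines, 0 between lung and primary lines and 1 in the F test in each fit that left out a line. It became 2 between brain and primary lines with an intensity trend and robust prior, where Vim joined Foxc2, and 0 between brain and lung lines and in the F test with no moderation, where each gene has its own 6 degrees of freedom. Leaving out both brain line 3 and lung line 1, chosen after seeing the data, left 1 in each brain comparison. Genes called between brain and primary lines were 51 with no moderation, 246 with every probe set, 197 with only the 6 arrays and 273 to 556 with a line left out. Between brain and lung lines they were 3, 92, 107 and 69 to 417, and in the F test 2 with no moderation, 92 with every probe set and 160 to 370 with a line left out. Between lung and primary lines 1 gene passed with no moderation, against 0 with limma and 0 in the fits with a line left out. Epithelial genes higher in brain than in primary lines were 0 with no moderation, 2 with every probe set, 4 without the 2 widest-spread lines, 14 without the dimmest genes and 2 to 9 with a line left out. Those higher in brain than in lung lines were 0 with no moderation, 0 with every probe set, 0 without the 2 widest-spread lines, 8 with the replicate block and 0 to 8 with a line left out.

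None of the reversed changes was called. They were Twist1 between lung and primary lines with array weights (0.0608) and over left-out lines (-0.21 to 0.11), Twist2 between brain and lung lines with centring (0.0177) and with array weights (0.0168) and over left-out lines (-0.18 to 0.12), and, over left-out lines, Twist1 (-0.29 to 0.0241) and Snai1 (-0.0164 to 0.0450) between brain and lung lines and Zeb2 (-0.0984 to 0.0231) and Vim (-0.0504 to 0.00262) between lung and primary lines. The cause was not tested.

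With the replicate block, Foxc2 kept both calls, while Cldn7 and St14 (brain against lung lines) and Cdh1 and Bmi1 (brain against primary lines) lost theirs. Of the members, 1 was called in each brain comparison and 0 between lung and primary lines with that block, as without it. Genes with a group mean under 4.207 give no change at this signal over background.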
